A study of Arabidopsis thaliana with 6 samples.

Results

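The regions described here are the exon bins at the ends of Arabidopsis thaliana genes: stretches of exon at which an annotated transcript begins or finishes, marked "extreme" in the deposited exon counts. They were kept where the locus overlapped no other locus by the deposited coordinates. This left 44705 bins in 19054 loci, of 160604 exon bins in all and of 53277 gene-end bins in loci of any kind. In the RefSeq annotation 3235 of these loci do overlap another, so reads of a neighbour can still fall in some of them. The sources used here do not define the word extreme, but in each of the 19054 loci the lowest of these bins began at the lower limit of the locus. The upper limit was not compared. The usage of a bin is its read count as a percentage of the count of its gene in the same library. Reads that cross several bins count in each, so the usages of a gene can sum to more than 100%.

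Wild-type seedlings of the Columbia ecotype (Col), all sampled as a pool of tissues, were 9 days old and had been kept in cycles of 12 h light and 12 h dark, with light at 50 µmol per square metre and second. At ZT18, in the middle of the night, the light group was moved to white light for 2 h. The dark group was left in the dark, and harvest was at ZT20 in both. Each group has 3 RNA-seq libraries, called A, B and C as in the columns of the counts. The labels do not say whether separate cultures were used, so each p-value here rests on the spread among these libraries, which may be no more than technical.

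A plant gene can give transcripts that begin at different promoters or are cut and polyadenylated at different places. A start further downstream can remove an upstream open reading frame or a signal that sends the protein to an organelle. In Arabidopsis, phytochrome is known to change promoter choice in light. Cleavage at an early polyadenylation site can give a protein with a different end, as in FCA. Counts in gene-end bins view this choice only indirectly, because a bin loses reads whenever a transcript begins inside it or beyond it.

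Per library, 8695843 to 12689543 reads were counted in genes. Of these, ribosomal RNA loci took 2.04% in dark C, 1.95% in light A and 0.373% to 0.771% in the other 4. Genes listed as root markers and as leaf markers were both detected. Of the root list, SCR averaged 44.0 CPM (counts scaled to the library's size) in the dark and PHO1 148 CPM. The root hair genes COBL9 and EXPA7 were only at 2.24 and 2.15 CPM. The leaf gene RBCS1A averaged 12260 CPM in the dark. Of 11 root and leaf markers, 4 were higher and 5 lower in light, beside 28.9% and 27.4% of all genes, with COBL9 changed by 0.92 ± 0.25 on the log2 scale at most. Their part in bin usage was not tested.

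Most loci offer little choice of end in the annotation. In 15359 loci there were exactly 2 gene-end bins, at the outer start and the outer end, and 3695 loci held more, up to 10. Of the 44705 bins, 19054 were the outermost at the start, 19054 the outermost at the end, and 6597 lay further in. Of these inner bins, 3446 belonged to the start, 2910 to the end, and 241 could be placed on neither side. Start bins were 200 bases wide in the median and end bins 342. In 8821 bins no library had a read, and 23806 bins in 12733 loci passed the filter on low counts and were tested, which leaves 20899 untested.

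Usage of gene ends was seldom altered by the light pulse to a degree this design could call. With edgeR's quasi-likelihood test, 21 of the 23806 bins tested, in 17 loci, passed an adjusted p of 0.05, which is 0.0882% of them. Over all 102199 exon bins tested, 101 passed, or 0.0988%. The share among these gene ends is thus near that of all bins, which include bins of overlapping loci. In loci free of neighbours, exon bins marked with no event passed in 12 of 59914 (0.02%), a lower share. Of those, 3.99% had a p under 0.05 without adjustment. The difference from gene-end bins was not tested. Of the 21 bins, 11 were higher in light, against 0.0401% of all bins, and 10 were lower, against 0.0587%. Without adjustment, 4.85% of the gene-end bins and 4.66% of all bins had a p under 0.05. The light and dark libraries did not overlap in 11.7% of gene-end bins and in 11.5% of all bins. In the same libraries 56.3% of genes changed in level at the adjusted threshold.

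Within the set, the called bins were unevenly placed. Inner bins passed in 10 of 4137 tested (0.242%) and outermost bins in 11 of 19669 (0.0559%). Loci with exactly 2 gene-end bins gave 7 called bins of 17297, and loci with more gave 14 of 6509 (0.215%). Gene-end bins of loci that do overlap another, which are not described further, passed in 42 of 5620 (0.747%). These shares are given as counts, and the differences between them were not tested.

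The direction of change followed the side of the gene. All 9 called start bins were lower in light, with 0 higher by edgeR or DESeq2, and 11 of the 12 called end bins were higher, the exception being the last exon of AT5G13560. The same lean ran through the bins that were not called. Over all 11089 start bins tested the median log2 change was -0.032, with 128 higher and 437 lower where p was under 0.05 before adjustment. Over all 12592 end bins it was 0.026, with 490 higher and 86 lower. These bins are not independent of each other. GGT1, PAI1 and AT4G23680, 3 loci, were called on both sides, and CA1 gave adjoining end bins. Since the gene count is the denominator, a fall at the start of a gene by itself raises the usage of its end.

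Libraries of both groups differed in how far their reads leaned toward the starts or ends of genes. The median deviation of start bins from their mean over libraries, on the log2 scale, was -0.018, 0.010 and 0.059 in dark A, B and C and 0.002, -0.044 and 0.011 in light A, B and C. That of end bins was 0.017, -0.005 and -0.040 in the dark and 0.006, 0.037 and 0.000 in light. The groups overlapped, with dark C leaning most toward starts and light B most toward ends. After each library was centred on its own start and end medians, a setting added after seeing the data, 14 start bins were lower and 1 higher, and 17 end bins were higher and 3 lower. With the gene count less the bin's own count as denominator, the pattern did not hold for ends: 30 end bins were higher and 35 lower, and 22 start bins were lower and 6 higher.

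**Figure D1:**
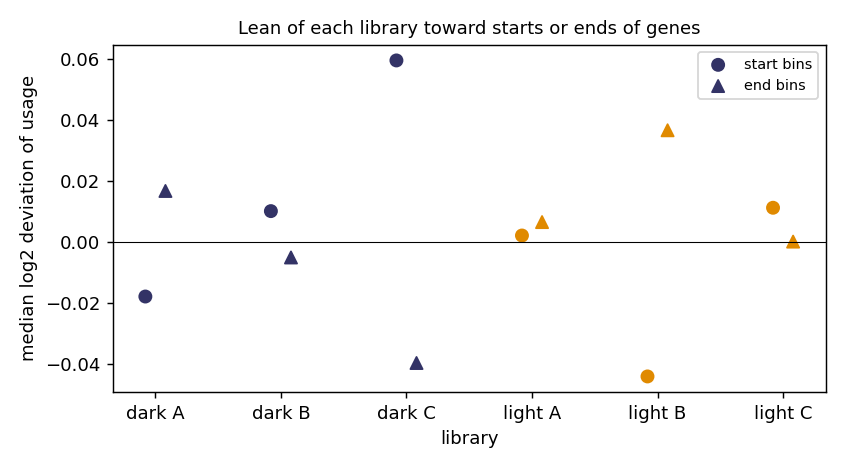
Median log2 deviation of usage in each library, for start bins (circles, n = 8665) and end bins (triangles, n = 10931) with a mean of at least 20 counts, in dark (blue) and light (orange) libraries. Dark C and light B lie furthest apart, at 0.059 and -0.044 for starts and at -0.040 and 0.037 for ends. The other libraries of both groups overlap.

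**Figure D2:**
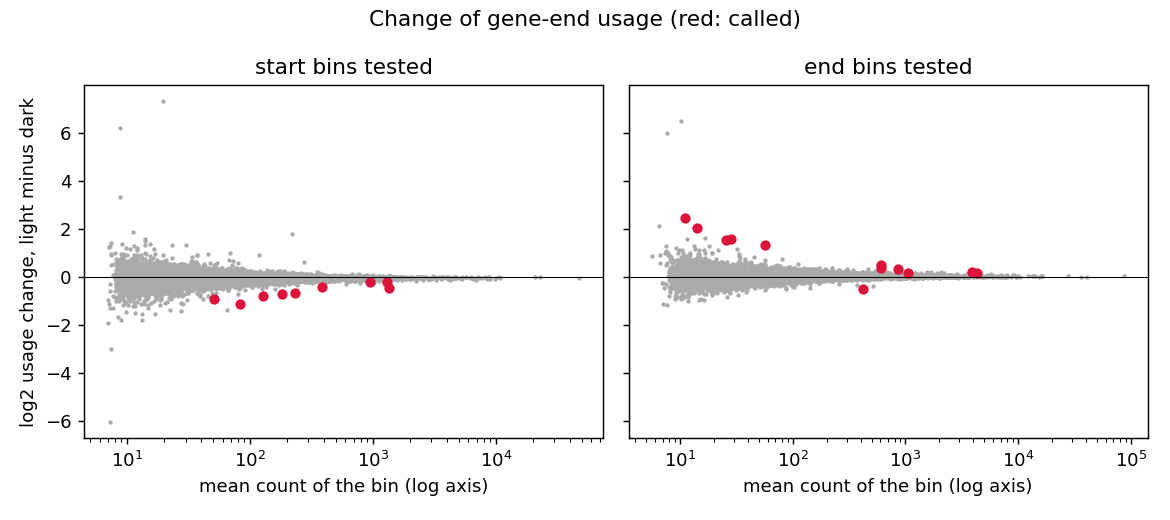
Log2 change of usage, light minus dark, against the mean count of each bin over the 6 libraries, for the start and end bins tested, with called bins in red. The 9 called start bins lie below 0 and 11 of the 12 called end bins lie above 0, and the widest scatter is at low counts.

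Of the 17 loci with a called bin, 16 also changed in level, 8 upward and 8 downward, beside 56.3% of all genes (28.9% and 27.4%), and AT2G26500 alone did not pass that test. All 21 bins were apart in usage between the groups, but only 10 differed by more than 1.5-fold. The values of every library are shown in the plot of called bins.

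**Figure D3:**
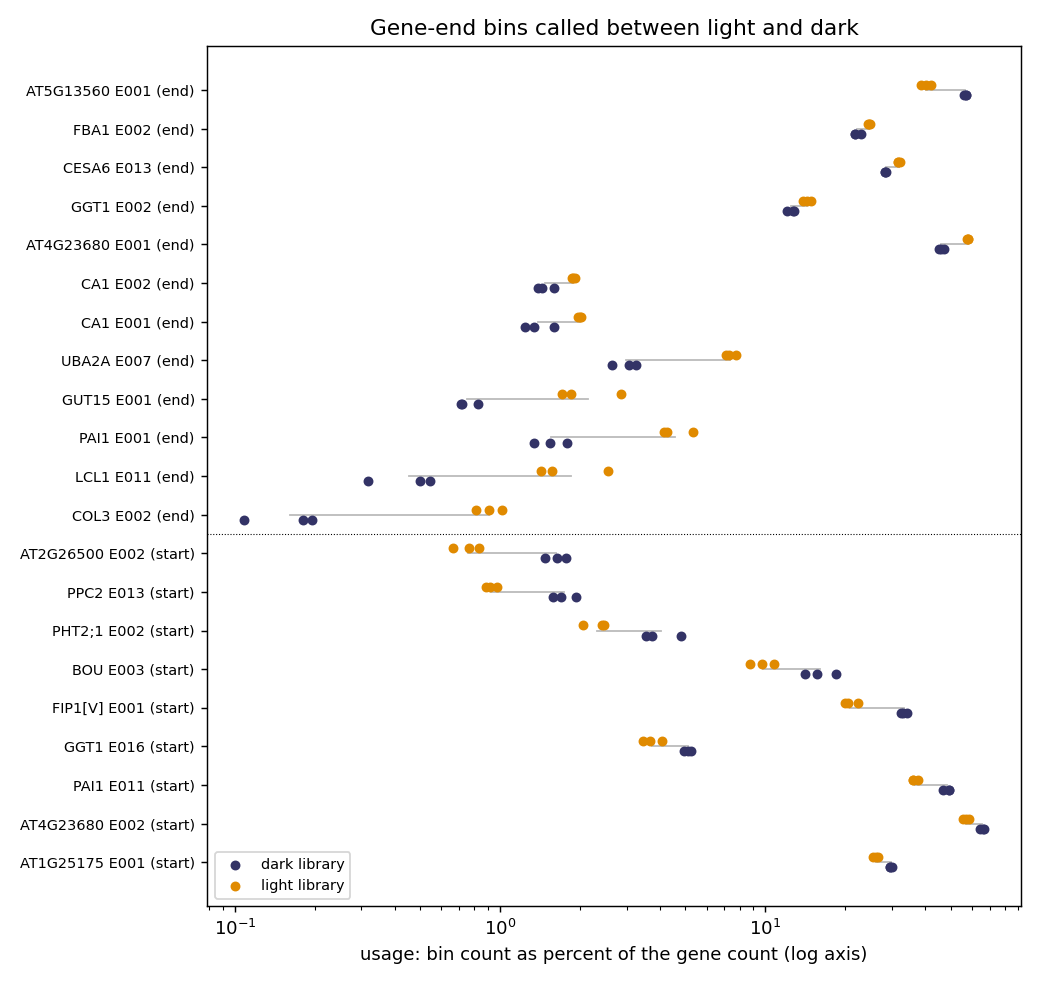
Usage of the 21 called gene-end bins in each dark (blue) and light (orange) library, as percent of the gene count on a log axis, with end bins above the dotted line and start bins below it. Grey lines join the group means. In each bin the light and dark libraries are apart, from COL3, at 0.161% in the dark and 0.912% in light, to AT4G23680, at 65.7% and 57.1%.

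The clearest change among starts was in FIP1[V], a subunit of the complex that cleaves and polyadenylates messenger RNA. Its first exon (TAIR10 chromosome 5, 23488748 to 23489632, plus strand) held 33.1%, 34.3% and 32.5% of the gene's reads in dark A, B and C and 22.4%, 20.5% and 19.9% in light A, B and C. The bin's own counts were 324, 336 and 323 in the dark and 169, 144 and 103 in light. All dark libraries were above all light ones. Usage fell by 0.66 ± 0.06 on the log2 scale, or 1.58-fold (adjusted p = 0.00152 by edgeR's quasi-likelihood test), and the gene changed by -0.30 ± 0.07. The call held without each library in turn and under the other 11 alternatives.

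Reads from the first intron of FIP1[V] fell beside its first exon. The intron row held 22, 26 and 19 reads in the dark and 5, 2 and 4 in light. The long seventh exon, by contrast, held 37.3% ± 0.788 (SD, n = 3) of the gene's reads in the dark and 46.1% ± 2.59 in light, a change of 0.29 ± 0.05 that did not pass (adjusted p = 0.0811). Its counts, 357, 373 and 373 in the dark and 338, 311 and 254 in light, differed less between the groups than those of the first exon. The last bin, at 3.29% and 3.45%, overlapped between groups. The RefSeq gene table has SVL4 overlapping FIP1[V], but at its end, over 0.2% of its length.

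BOU, a mitochondrial carrier needed for photorespiration, changed at its start while its level rose by 1.02 ± 0.06. Its first exon (chromosome 5, 18990495 to 18990772, minus strand) held 14.1%, 15.7% and 18.4% of reads in the dark and 10.8%, 9.75% and 8.76% in light. In counts the exon hardly moved, from 164, 158 and 223 to 205, 204 and 141, while both later exons went up with the gene. Usage changed by -0.71 ± 0.10 (adjusted p = 0.027).

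Within the first intron of BOU, reads were found almost only in light. The intron row held 1, 0 and 1 reads in the dark and 26, 37 and 21 in light. An unannotated junction from the second exon to a site inside that intron (chromosome 5, 18989812 to 18990316) had 0 reads in each dark library and 13, 18 and 5 in light A, B and C. It took 8.22% ± 3.32 of the reads that joined that border of the second exon in light, and 0 of 281 in the dark, which allows a share of up to 1.07%. The deposited counts mark this junction as hitting several genes, so it was not tested. The call for the first exon was lost without dark B (adjusted p = 0.125), dark C (0.117), light B (0.16) or light C (0.0935).

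In 3 further genes an inner bin near the start lost share. AT2G26500, whose level did not pass the test (-0.12 ± 0.07), had an inner start bin of 82 bases (chromosome 2, 11270136 to 11270217, plus strand) at 1.63%, 1.48% and 1.77% in the dark and 0.836%, 0.662% and 0.763% in light. The change was -1.12 ± 0.12 (adjusted p = 0.00328), and it held without each library in turn. The adjoining 50 bases downstream stayed at 14.4% ± 0.536 and 12.8% ± 1.61, which did not pass (adjusted p = 0.904). The bin's call was lost without dark C and light A together (adjusted p = 0.0659).

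PHT2;1, a phosphate transporter of the chloroplast envelope, rose by 1.24 ± 0.06 in level. Its inner start bin of 112 bases (chromosome 3, 9756225 to 9756336, plus strand) held 3.56%, 3.75% and 4.81% in the dark and 2.42%, 2.47% and 2.06% in light, with no overlap. The change was -0.79 ± 0.12 (adjusted p = 0.0308). The outermost 34 bases went the same way, from 0.536% to 0.184%, and did not pass (-1.53 ± 0.29, adjusted p = 0.135). The call was kept only without dark A, and otherwise lost at adjusted p from 0.0949 without dark B to 0.114 without dark C.

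PPC2, a phosphoenolpyruvate carboxylase, rose by 0.73 ± 0.06 and showed the same at both bins of its first exon. The inner one (chromosome 2, 17738910 to 17738973, minus strand) held 1.70%, 1.59% and 1.93% in the dark and 0.973%, 0.913% and 0.887% in light (-0.91 ± 0.13, adjusted p = 0.0214). The outermost 112 bases changed by -1.12 ± 0.19 and did not pass (adjusted p = 0.0647). Reads across the junction that leaves this exon numbered 38, 27 and 39 in the dark and 22, 19 and 27 in light, although the gene rose. Relative to the gene this junction changed by -1.05 ± 0.22 (adjusted p = 0.0237). The next stretch, joined by that junction, held 3.17% ± 0.315 in the dark and 2.79% ± 0.205 in light. The bin's call was lost without each of the 6 libraries, at adjusted p from 0.0552 without dark B to 0.143 without dark C. The junction's call was lost without dark A (0.181), dark C (0.17), light A (0.159) or light B (0.316). DESeq2 called neither the bin (adjusted p = 0.0747) nor the junction (1).

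GGT1, the peroxisomal glutamate:glyoxylate aminotransferase of photorespiration, had called bins at both ends. Its first exon (chromosome 1, 8271642 to 8271933, minus strand) held 4.93%, 5.12% and 5.23% in the dark and 4.08%, 3.45% and 3.69% in light (-0.45 ± 0.05, adjusted p = 0.00328). Its inner end bin (chromosome 1, 8268416 to 8268817) held 12.8%, 12.7% and 12.1% in the dark and 14.3%, 14.8% and 13.9% in light (0.20 ± 0.03, adjusted p = 0.0216). None of the tested exons between these passed. The fitted values there went from -0.14 in the second exon (adjusted p = 0.575) to 0.05 in the last of them (adjusted p = 0.935). The gene fell by 0.48 ± 0.06 on the log2 scale. The call at the start held without each library, while that at the end was lost without dark B (0.0949), dark C (0.0513), light A (0.131) or light B (0.148). The end call was also lost with the gene count less the bin's own as denominator (0.0624). It was lost too with gene-end rows alone in the fit (0.112) and with diffSpliceDGE (0.921). With a change of more than 1.2-fold required, neither call was kept. An unannotated junction at the border of the first exon, set aside because it hits several genes, had 166 and 159 reads in dark A and B and at most 1 in the other 4 libraries.

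Another called start bin belongs to AT1G25175, a non-coding RNA that fell by 1.01 ± 0.08 on the log2 scale. Its first exon held 29.5%, 29.6% and 30.1% in the dark and 25.5%, 26.1% and 26.6% in light (-0.19 ± 0.03, adjusted p = 0.0294), a small shift without overlap. Reads that enter its last exon did so more often from the third exon in light. Of those at that border, 42.0%, 43.4% and 39.3% came from the third exon in the dark and 58.5%, 53.5% and 52.1% in light. Relative to the gene, that junction changed by 0.70 ± 0.10 (adjusted p = 0.000113) and held without each library. The call for the first exon was lost without each library, at adjusted p from 0.064 without dark A to 0.246 without light A, and with DESeq2 (0.279). RefSeq has the protein-coding AT1G25180 overlapping this locus at its end, over 4.41% of its length, where the last exon lies.

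Among ends, UBA2A gave the largest change that held without each library. UBA2A encodes an RNA-binding protein that associates with UBP1. An alternative last exon within the gene (chromosome 3, 21050142 to 21050491, minus strand) held 2.65%, 3.25% and 3.07% of reads in the dark and 7.13%, 7.73% and 7.30% in light. In counts it went from 42, 43 and 42 to 70, 83 and 57, while the gene fell by 0.31 ± 0.07 on the log2 scale. Usage rose by 1.31 ± 0.12, or 2.49-fold (adjusted p = 0.00142), also without each library and under the other 11 alternatives.

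Splice junctions of UBA2A showed the same switch. Of the reads that leave the first exon, 19.4%, 30.1% and 21.0% entered this alternative last exon in the dark and 71.8%, 54.7% and 58.6% in light. The junction to the next exon downstream took 47.6% ± 5.66 in the dark and 22.5% ± 6.35 in light. Both shares were apart between the groups, at 62 to 73 reads per dark library and 29 to 53 per light library. Relative to the gene, the junction into the alternative last exon changed by 1.24 ± 0.27 (adjusted p = 0.0341) and the junction into the outermost last exon by -1.45 ± 0.30 (adjusted p = 0.0228). Reads that cross a junction also fall on its bin, so this is no separate measurement. DESeq2 called neither junction (adjusted p = 1 and 0.999). The first was lost without dark A (0.33), dark C (0.205), light A (0.26) or light B (0.256), and the second was kept only without dark A.

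The exons of UBA2A behind the alternative end lost share. The fourth bin in order fell from 13.2% ± 0.541 to 7.88% ± 1.17, by 0.71 ± 0.10 on the log2 scale (adjusted p = 0.0163). The outermost last exon stood at 8.32% ± 1.31 and 5.73% ± 1.21 and did not pass (-0.51 ± 0.15, adjusted p = 0.734). Its libraries were the more scattered ones, from 7.04% to 9.66% in the dark and from 4.48% to 6.89% in light.

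AT5G13560 was the exception among ends, with less usage of its last exon. That exon of 1336 bases (chromosome 5, 4360631 to 4361966, minus strand) held 55.9%, 56.8% and 57.0% in the dark and 42.2%, 40.2% and 38.7% in light. Usage fell by 0.48 ± 0.04 on the log2 scale (adjusted p = 0.00142), and the call held without each library. The counts of the last exon were 618, 519 and 598 in the dark and 298, 286 and 210 in light. The other 17 bins all had higher usage in light, by 0.33 to 0.74, of which the sixteenth in order passed (0.74 ± 0.12, adjusted p = 0.049). That bin's counts were 85, 56 and 64 in the dark and 77, 79 and 63 in light. Those of the second bin in order went from 78, 75 and 75 to 58, 69 and 56. The gene fell by 0.36 ± 0.07 on the log2 scale. The last exon holds much of the gene count, so a fall in it by itself raises the usage of the other bins. RefSeq lists another gene, AT5G13565, inside the last part of this locus, and its reads could not be told apart here.

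**Figure D4:**
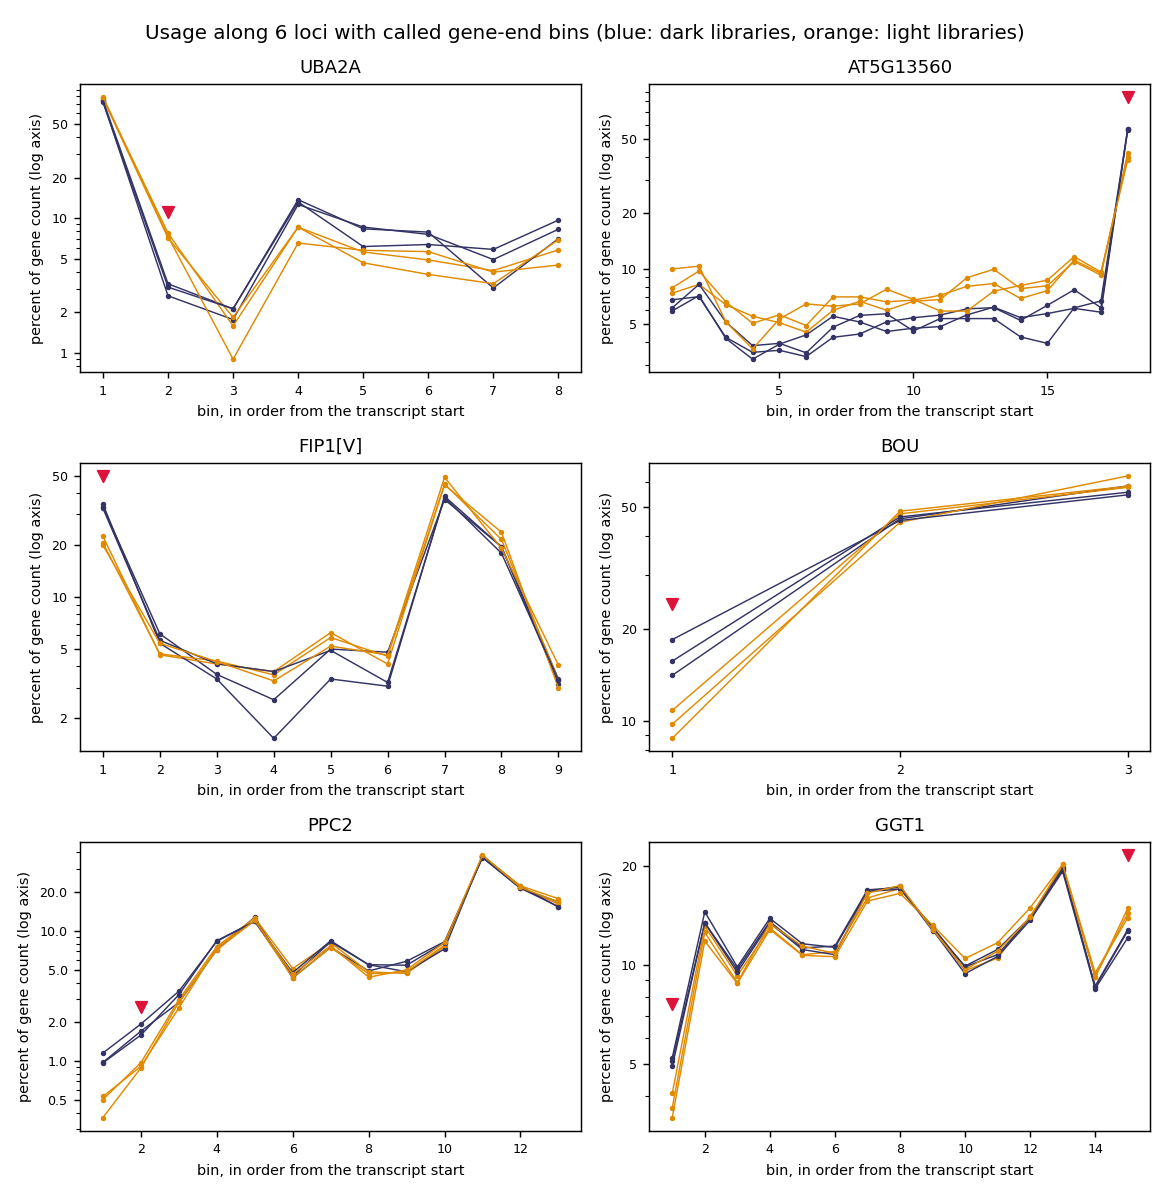
Usage of each bin in percent of the gene count (log axis) along 6 loci, in order from the transcript start, with a line for each dark (blue) and light (orange) library and called gene-end bins under red triangles. Bins with a mean under 10 counts are left out. At the called bins the light and dark lines are apart. They are also apart at some bins that were not called, such as the first of PPC2.

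CA1, a chloroplast carbonic anhydrase that rose by 0.64 ± 0.06, gained at an end that holds few of its reads. The outermost bin (chromosome 3, 194724 to 194885, minus strand) held 1.60%, 1.34% and 1.25% in the dark and 1.96%, 2.02% and 2.01% in light (0.52 ± 0.07, adjusted p = 0.0112). The junction into this last exon went from 468, 371 and 425 reads to 720, 748 and 561, a change of 0.33 ± 0.06 relative to the gene (adjusted p = 0.00388). It was lost without dark C (0.0649). The 6 bases next to that exon's border changed with it, by 0.36 ± 0.05. The outermost bin was lost without dark B (0.0915), light A (0.0605), light B (0.0866) or light C (0.0533). RefSeq has LSF1 overlapping CA1, but at its start.

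A pair of light- and clock-related genes held the highest fold changes at the lowest counts. COL3, a B-box transcription factor of light signalling, has an inner end bin of 86 bases (chromosome 2, 10567538 to 10567623, plus strand) with 9, 5 and 8 reads in the dark and 17, 15 and 12 in light. The gene fell by 1.21 ± 0.06 on the log2 scale, so usage went from 0.161% ± 0.0461 to 0.912% ± 0.105 (2.47 ± 0.30, adjusted p = 0.00814). This bin covers most of the gene's only intron, whose own row held 9, 5 and 8 reads in the dark and 19, 19 and 13 in light. An early end and an unspliced intron cannot be told apart by these counts. The junction that removes the intron kept pace with the gene (-0.09, adjusted p = 0.987).

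LCL1, a MYB-like factor of the clock, fell by 1.66 ± 0.07 on the log2 scale. Its inner end bin (chromosome 5, 651287 to 651496, plus strand) held 16, 16 and 9 reads in the dark and 12, 22 and 10 in light, so that usage went from 0.453% ± 0.119 to 1.85% ± 0.609 (2.03 ± 0.32, adjusted p = 0.0474). It too begins where an intron begins, and that intron's row held 22, 20 and 13 reads in the dark and 18, 28 and 13 in light. In both genes the bin held as many reads in light as in the dark, or more, while the gene fell. The call for LCL1 was lost without each library, at adjusted p from 0.0997 without light A to 0.462 without light B. That for COL3 was lost without light A (0.091), light B (0.0552) or light C (0.0504). Both bins are below the count set for naming, and they are named with their values known.

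GUT15, a non-coding RNA with an unstable transcript that fell by 0.79 ± 0.07 on the log2 scale, was of the same kind. Its outermost end bin held 26, 20 and 19 reads in the dark and 23, 44 and 22 in light, or 0.753% ± 0.0649 and 2.14% ± 0.620 of the gene (1.52 ± 0.23, adjusted p = 0.0361). The end bin next to it, with 6.88% and 6.19%, did not pass. The call was lost without each library, at adjusted p from 0.0545 without light A to 0.224 without light B. RefSeq has a pseudogene inside this locus.

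In PAI1 and AT4G23680 reads may be shared with near-identical or neighbouring genes, so their values are uncertain. PAI1, an isomerase of tryptophan synthesis with a near-identical copy elsewhere in the genome, had an inner start bin at 48.4% ± 1.29 in the dark and 36.6% ± 1.00 in light (-0.40 ± 0.04, adjusted p = 0.00328). Its outermost end bin stood at 1.56% ± 0.222 and 4.58% ± 0.654 (1.57 ± 0.20, adjusted p = 0.0112). An unannotated junction from its start exons into the next locus had 500, 395 and 632 reads in the dark and 361, 446 and 289 in light. The annotated junction next to it, into the following exon of PAI1, had 21, 4 and 14 and then 24, 22 and 9, so far fewer reads joined the start to the rest of its own locus than to the neighbour. The start bin's call held without each library, and that of the end bin was lost without light A (0.0645), dark B (0.0608) or dark C (0.104).

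AT4G23680, which rose by 1.44 ± 0.06, had its start bin at 65.7% ± 1.23 in the dark and 57.1% ± 1.40 in light (-0.21 ± 0.03, adjusted p = 0.0463). Its end bin was at 46.1% ± 0.876 and 57.8% ± 0.448 (0.33 ± 0.03, adjusted p = 0.00164). Unannotated junctions joined it to the preceding locus, AT4G23670, the larger with 209, 205 and 235 reads in the dark and 316, 346 and 264 in light. The gene's own junction had 133, 104 and 111 and then 314, 354 and 303. The end call held without each library and the start call was lost without each, at adjusted p from 0.0559 without light C to 0.22 without dark C, and with DESeq2 (0.357). With diffSpliceDGE neither the end bin (0.347) nor the start bin (0.832) was called.

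The last called bins were small shifts in abundant genes. FBA1, a chloroplast fructose-bisphosphate aldolase, had an inner end bin at 22.1% ± 0.688 and 24.6% ± 0.282 (0.15 ± 0.02, adjusted p = 0.0372), and its level rose by 1.79 ± 0.06. CESA6, a cellulose synthase of the primary wall, had its last exon at 28.4% ± 0.199 and 31.8% ± 0.229 (0.16 ± 0.03, adjusted p = 0.0463). FBA1 was kept only without dark A and otherwise lost at adjusted p of 0.0763 (without light C) to 0.287 (without dark B). The FBA1 call was also lost with the gene count less the bin's own as denominator (0.0983) and with gene-end rows alone in the fit (0.0974). CESA6 was lost without each library, at adjusted p from 0.113 without dark A to 0.287 without dark B. It was also lost with DESeq2 (0.97), with the gene count less the bin's own as denominator (0.23) and with centring per library and side (0.0755). With a replicate block by the shared column letter both genes lost their call (0.0611 for FBA1 and 0.12 for CESA6), as they did with diffSpliceDGE.

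Of the 21 called bins, 7 kept their call without each library in turn: those of FIP1[V], UBA2A, AT5G13560, AT2G26500, the starts of GGT1 and PAI1 and the end of AT4G23680. Another 8 were lost in some of these fits and 6 in all of them. Without dark C and light A together, the 2 libraries richest in ribosomal RNA, 4 remained: FIP1[V], UBA2A, AT5G13560 and the start of GGT1.

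Reads across junctions at the borders of these bins were tested too, and these also reflect a choice of splice site. Of 15065 tested junctions that touch one of the bins, 21 passed, beside 0.169% of all 65835 junctions tested, and 4 of the 21 touch a called bin. In light 8 were higher and 13 lower, beside 0.0729% and 0.0957% of all junctions. RCA, the activase of Rubisco, splices its last exon from alternative sites: the longer intron went from 2327, 2021 and 2271 reads to 5027, 5254 and 3905, and the shorter from 2892, 2515 and 2857 to 4447, 4710 and 3361. Relative to the gene these changed by 0.28 ± 0.03 (adjusted p = 1.29e-06) and -0.23 ± 0.03 (adjusted p = 3.22e-05), so the balance moved toward the longer intron, and both calls held without each library. The junction at the start of GR-RBP8, a glycine-rich RNA-binding protein, changed by 0.46 ± 0.08 (adjusted p = 0.00217), also without each library. That of CCR2, its clock-regulated relative, changed by 0.28 ± 0.05 (adjusted p = 0.0098) and was lost without dark A (0.0724), dark C (0.0737), light A (0.0736) or light C (0.0839).

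Some junctions were all or none between groups. A junction of the tubulin gene TUB3 had 0 reads in each dark library and 126, 117 and 102 in light, and a junction of the glycine-rich protein gene ATGRP-3 had 38, 34 and 37 in the dark and 0 in each light library. Both are unannotated and lie in genes with close relatives, so the placing of reads between copies is uncertain. These junctions were picked after their values were seen.

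Genes known for a choice of start or end did not pass. Of 12 such genes, 9 had bins free of neighbours, with 24 tested and 0 called by edgeR or DESeq2, while 7 had an unadjusted p under 0.05. Over all bins tested these shares were 0.0988% and 4.66%, so 0 calls among 24 bins is no result about these genes. The 7 bins included all 5 tested bins of FCA. The others were the outermost start bin of PHYA (unadjusted p = 0.0396 by edgeR) and an inner end bin of IBM1 (0.0444). FPA, THIC and RPP7 lie in overlapping loci. Outside FCA, the 19 bins of GLYK, PHYA, PHYB, CPSF30, IBM1, SIG5, FLC and FY had an adjusted p of 1, with changes from -0.62 to 0.59. GLYK, glycerate kinase of photorespiration, known for a start that moves with phytochrome, stood at 15.2% and 15.5% at its inner start bin (0.03 ± 0.05).

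FCA, an RNA-binding regulator of flowering that acts on its own polyadenylation, fell by 0.62 ± 0.08 on the log2 scale. Its outermost start bin held 14.6% ± 0.657 in the dark and 9.42% ± 1.70 in light (-0.66 ± 0.15, adjusted p = 0.293). Its 3 end bins held 6.25% ± 1.45, 2.55% ± 0.880 and 3.70% ± 0.570 in the dark and 11.4% ± 1.49, 5.57% ± 1.01 and 8.23% ± 1.94 in light. In these 4 bins the light and dark libraries were apart, but no end bin passed (adjusted p = 0.296, 0.508 and 0.177). The bin that could be placed on neither side overlapped between groups. Usage also moved in exons between the ends, of which none tested passed. Their fitted changes ran from -0.85 ± 0.32 in bin 2 in order from the start to 0.93 ± 0.29 in bin 8. The shift was therefore not particular to the gene-end bins. Further upstream than the end bins, a bin of 2075 bases marked as intron retention lies outside this set and was not tested. It held 15.3% ± 1.14 in the dark and 11.1% ± 0.755 in light, so it moved the opposite way to the end bins. Each end bin held 10 to 40 reads per library. In the order given, the end bins are 449, 1 and 45 bases wide, and the second adjoins the third. A read that crosses several of them counts in each, so they are not separate measurements.

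Of the other gene lists, few held a called gene end. The list of cleavage and polyadenylation genes had 1 of 54 tested bins called, that of FIP1[V], and the clock list 1 of 42, that of LCL1. The list of photorespiration and nitrogen had 3 of 56, in GGT1 and BOU. Over all bins tested the share was 0.0988%. Photosynthesis and antenna genes (58 bins), light signalling (45), splicing factors (49), starvation (38), flavonoid (26), transcription (24) and leaf and root markers (19) had 0 by edgeR and by DESeq2. Their bins with an unadjusted p under 0.05 numbered 18, 3, 3, 0, 2, 1 and 2 in that order, against 8, 1 and 20 in the cleavage, clock and photorespiration lists and 4.66% of all bins. The median change of their bins was -0.03 to 0.05, beside 0.00 over all gene-end bins.

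Genes that make transcript ends changed in both directions in level. Of 27 cleavage and polyadenylation genes tested, 4 were higher, 7 lower and 16 did not pass, beside 28.9% and 27.4% of all genes. The fallers included the poly(A) polymerases PAPS2, from 39.7 ± 2.74 to 19.2 ± 0.711 CPM (-1.05 ± 0.08, adjusted p = 2.44e-08), and PAPS4, from 89.9 ± 8.10 to 50.7 ± 4.11 CPM (-0.83 ± 0.08). CFIS1, a small subunit of cleavage factor I, went from 14.3 ± 0.538 to 5.87 ± 0.300 CPM (-1.27 ± 0.12, adjusted p = 2.03e-07). FCA also belongs to this list. With library totals alone as scaling, which moves the median of all genes from -0.003 to -0.145, 1 gene was higher and 8 lower.

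Genes of transcription start and elongation were divided too. Of 21 tested, 3 were higher, 7 lower and 11 did not pass, beside 28.9% and 27.4% of all genes. TAF10, a subunit of TFIID, fell from 48.5 ± 3.38 to 25.9 ± 2.01 CPM (-0.89 ± 0.08, adjusted p = 1.4e-07), and TAF6 from 40.2 ± 1.44 to 23.4 ± 2.59 CPM (-0.77 ± 0.08). TFIIB1 fell from 52.3 ± 2.54 to 39.4 ± 0.967 CPM (-0.40 ± 0.06), and TAF12 rose from 18.6 ± 1.33 to 25.5 ± 1.66 CPM (0.45 ± 0.09, adjusted p = 0.00047). With library totals alone, 1 was higher and 10 lower.

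The widest fitted changes in usage were in bins that did not pass. Some belong to genes almost silent in the dark, such as SAG29, whose start bin held 0 reads in each dark library beside gene counts of 1, 1 and 8, and 45, 30 and 43 in light. Such a gene gives no usable usage in the dark. AT1G67900 is different, with 224 to 288 reads in each dark library. Its outermost start bin (chromosome 1, 25464726 to 25464987, plus strand), a separate exon upstream of the inner start, held 1, 1 and 0 reads in the dark and 22, 19 and 10 in light, against 4, 1 and 4 and then 4, 4 and 4 in the inner start bin. Usage of the outer start went from 0.272% ± 0.239 to 2.80% ± 0.677 and did not pass (3.34 ± 0.63, adjusted p = 0.129). The junction from that exon to the exon that both starts share had 1, 0 and 0 reads in the dark and 7, 6 and 4 in light. These bins were picked for their size.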

How the data were processed

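The authors deposited read counts per gene, exon bin, intron and junction for 6 libraries. The submitters' processing notes name TopHat2 2.0.9, R 3.1 and the TAIR10 build. Neither the counting program nor the use of strand is given in the sources used here. Reads of antisense partners cannot therefore be told apart. Which end of a gene is its start was taken from the order of the exon rows, which fell into 2 runs per chromosome, and this order fitted the splice-site bins in 2892 of 2892 loci that have them.

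For bin and junction counts, edgeR's quasi-likelihood F test was run with the log of the gene count plus 0.5 as offset, after filterByExpr, with Benjamini-Hochberg adjustment over all 102199 exon bins or 65835 junctions tested, and gene counts with TMM over 20151 genes. Changes are log2 ± SE. Called bins were named by size, 8 each way, with a mean of at least 20 counts and 1 bin per locus. The rule named 16, and the other called bins are given with their values known. The members and lists were chosen with earlier results of these data known. The limit given for a count of 0 is 3 counts and covers counting error only. Sequences are not shown, as no genome was used here. RefSeq (TAIR10.1) gave names and overlaps for 18968 of 19054 loci. The method was tested on simulated data with the same dispersion in every row and no lean of libraries toward starts or ends. That test does not show how the method behaves under such a lean. The tools were edgeR 4.0.16, DESeq2 1.42.0, limma 3.58.1 and the R package for data frames (1.17.8), under R 4.3.3. Libraries of a group differed by more than sampling noise. Chi-square per degree of freedom was 12.3 to 17.5 in pairs with dark C or light A, and 3.47 and 2.61 in the other pairs.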

Additional observations from a re-analysis of the deposited data

Results flagged for a closer look

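One measurement outside the tested counts stood above its level in the dark. The unannotated junction inside the first intron of BOU, set aside because the deposited counts mark it as hitting several genes, had 13, 18 and 5 reads in light A, B and C, so at least 5 in each, and 0 in each dark library. Groups of 3 libraries are too small for a test of single outlying samples.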

How the results depend on the processing

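The 21 calls, 11 higher and 10 lower, kept their direction under each of the alternatives that gave them a value, but their number moved. With the gene count less the bin's own count as denominator there were 37 higher and 60 lower, with gene-end rows alone in the fit 5 higher, and with a change of more than 1.2-fold required 3 higher and 2 lower. Leaving out 1 library gave 2 to 11 higher and 5 to 8 lower, and leaving out both libraries rich in ribosomal RNA 1 higher and 3 lower. Centring per library and side, chosen after seeing the data, gave 18 and 17, and loci also free of neighbours in RefSeq, likewise, 8 and 7. DESeq2 called 20 bins, 17 of them shared, and diffSpliceDGE 27, with 14 shared. The 21 junctions became 80 with no filter on low counts, 8 with DESeq2 and 13 to 22 without 1 library. With library totals alone, 1 gene of the cleavage and polyadenylation list and 1 of the transcription list were higher. A replicate block by the shared column letter gave 8 higher and 5 lower bins and 20 junctions. The labels do not say whether the letters pair samples. Between light and dark libraries, correlations of deviations were -0.067, 0.120 and -0.041 for shared letters. For unlike letters they ran from -0.088 to 0.130, so these values cannot decide whether samples are paired. The cause of these moves was not tested.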
